A study of Mus musculus with 7 samples.

Results

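The genes described here are 10 transcriptional targets of the tumour suppressor p53: Cdkn1a, Zmat3, Mdm2, Ccng1, Phlda3, Trp53inp1, Bax, Sesn1, Bbc3 and Aen. They were selected on measured values and taken as a named list from the 55491 gene rows of a single-cell RNA matrix, and all 10 had UMIs (unique molecular identifiers, each standing for 1 captured transcript). The list was chosen by the levels of Cdkn1a and Zmat3, which were higher in Siglece knockout than in control microglia. The values of the 10 genes in knockout against control microglia are therefore given as a description, with no test. Tests are given for the other cell classes, for differences between classes and for cell cycle phase.

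p53 is a transcription factor that the ubiquitin ligase Mdm2 keeps at a low level in unstressed cells and that accumulates after DNA damage and other stresses. Its targets stop the cell cycle, restrain growth, promote apoptosis or feed back on p53 itself. Many of them also respond to other factors, and Cdkn1a in particular can be induced without p53 when myeloid cells differentiate. Microglia are the resident macrophages of the brain, and in a glioma they lie beside macrophages that arise from blood monocytes.

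The study compared the immune cells of gliomas in mice labelled Siglece KO, bred for deletion in microglia of this inhibitory receptor for sialic acids, with those of controls. CT-2A cells, a mouse glioma line, were engrafted into the brain at 8 to 12 weeks of age. The 4 KO mice carried the Sall1CreERT2 driver, a tamoxifen-activated Cre under the microglial gene Sall1, and floxed Siglece alleles (Siglece fl/fl). The 3 WT mice carried no Cre. The driver, its active Cre and the deletion of Siglece go together in the KO mice, so their parts cannot be told apart. Mice of both genotypes received tamoxifen, 2.5 mg for each injection, daily between days 7 and 21 after engraftment and then on alternate days, and the driver came from a B6;129 and the floxed allele from a B6.129P2 background. The suspensions had been frozen and thawed before live CD45+ and/or CD11b+ cells were sorted, each mouse gave 1 library, and deletion is limited to cells in which Sall1 is active.

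The matrix held 28644 cells, from 1410 (KO replicate 1) to 5856 (KO replicate 4) per mouse, with a median of 4479 to 9554 UMIs per cell. The 23 annotations given by the authors were grouped here as 9 classes. The lymphoid classes are B cells, T cells and NK cells, the myeloid and dendritic ones are microglia, monocyte-derived cells, monocyte-derived dendritic cells (mo-DCs), conventional dendritic cells (cDCs) and plasmacytoid dendritic cells (pDCs), and the last is tumour or stromal cells. All 8 microglia markers were highest in the microglia class, whereas only 4 of 10 monocyte-derived and 3 of 8 tumour or stromal markers were highest in the class of that name. Siglece had 2, 1, 0 and 0 UMIs in the microglia of KO replicates 1 to 4 and 20, 19 and 7 UMIs in those of WT replicates 1 to 3. In CPM (UMIs of the gene scaled to 1000000 UMIs of these cells) this is 10.7, 19.6, 0 and 0 against 36.1, 45.9 and 18.6, so the groups overlapped, with KO replicate 2, on 1 UMI, above WT replicate 3; which exons were floxed is not given in the sources used here. Microglia were few, with 30, 21, 13 and 49 cells in the KO mice and 113, 92 and 96 in the WT mice. By Xist and Y-linked transcripts 2 KO mice (replicates 1 and 2) and 1 WT mouse (replicate 3) were female. No pair of libraries shared more than 56 cell barcodes.

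Promoter windows of 8 of the 10 genes were found in RefSeq (build GRCm38.p6, the same assembly as mm10), and Zmat3 and Trp53inp1 were not matched. The 13 windows run from 250 bases before to 50 bases after an annotated start. Both strands were searched for the p53 consensus, a pair of adjacent decamers of 10 bases each, whose letters read the same on either strand. A full site was accepted with up to 2 mismatches in its 20 bases outside the core of each decamer, and a single decamer with none. A full site was found in 1 of the 13 windows, the first of Cdkn1a, and in 0.158% of all 32851 windows. Single decamers were found in 7 of the 13 windows, belonging to Cdkn1a, Mdm2, Ccng1, Bax, Sesn1 and Aen, and in 8.36% of all windows. The Aen windows overlap and hold the same decamer (chr7:78895937-78895946), which is counted in each. The windows of Phlda3 and Bbc3 held neither. The first Cdkn1a window, chr17:29090729-29091028 on the plus strand, and the Mdm2 window, chr10:117710709-117711008 on the minus strand, are shown because these genes are the cell cycle and feedback arms of the pathway. Capitals mark full sites and single decamers.
Cdkn1a: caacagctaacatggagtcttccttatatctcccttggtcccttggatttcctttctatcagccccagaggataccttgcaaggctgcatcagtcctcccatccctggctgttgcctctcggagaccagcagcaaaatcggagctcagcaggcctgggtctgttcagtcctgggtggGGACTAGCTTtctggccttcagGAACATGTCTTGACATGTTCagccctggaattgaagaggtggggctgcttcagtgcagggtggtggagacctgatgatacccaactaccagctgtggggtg
Mdm2: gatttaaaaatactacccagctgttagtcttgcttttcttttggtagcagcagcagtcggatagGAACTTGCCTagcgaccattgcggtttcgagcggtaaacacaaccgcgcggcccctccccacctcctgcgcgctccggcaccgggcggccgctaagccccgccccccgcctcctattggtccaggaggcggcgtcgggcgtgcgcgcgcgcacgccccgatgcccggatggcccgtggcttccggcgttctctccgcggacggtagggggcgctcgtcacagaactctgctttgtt
The full site in Cdkn1a lies at chr17:29090928-29090947, starts 51 bases before the annotated start and has 1 mismatch to the consensus, and its first decamer has none. A further Cdkn1a decamer starts 73 bases, and the Mdm2 decamer 186 bases, before the start. The letters CATG, a core that the consensus allows and that therefore overlaps it, occurred in 3 of the 13 windows and in 61.1% of all windows. These are matches of letters, and p53 binding was not measured.

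Levels are given as CPM, that is, the UMIs of a gene in all cells of a class in 1 mouse per 1000000 UMIs of those cells. Cdkn1a, which encodes the cyclin-dependent kinase inhibitor p21, lies at chr17:29090976-29100727 in the GENCODE annotation. In microglia it stood at 1157, 587, 813 and 694 CPM in KO replicates 1 to 4 and at 179, 186 and 427 in WT replicates 1 to 3. Every KO value was above every WT value. The sums held 401 UMIs in KO and 337 in WT microglia, a pooled ratio of 3.52. A single cell held 49 of the 216 UMIs of KO replicate 1, and another held 37 of the 161 UMIs of WT replicate 3. KO replicate 3 had fewer than 20 microglia and was left out of the fit of this class. In the other 6 mice the fitted log2 change, KO over WT, was 1.65 ± 0.36 (SE).

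Ccng1 (chr11:40748552-40755311), a cyclin that p53 induces, stood at 58.9, 58.7, 81.3 and 55.5 CPM in KO and at 48.7, 48.3 and 68.9 in WT microglia. The groups overlapped, with a fitted log2 change of 0.07 ± 0.38 that ran from -0.065 to 0.24 when 1 mouse was left out. Mdm2 (chr10:117688875-117710758), which closes the feedback loop on p53, stood at 204, 78.3, 163 and 111 against 110, 94.2 and 148. These groups overlapped as well, and the fitted change of 0.30 ± 0.30 turned to -0.21 without KO replicate 1.

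Zmat3 (chr3:32334792-32366014) encodes an RNA-binding zinc finger protein that alters splicing. It stood at 53.6, 39.1, 135 and 55.5 CPM in KO and at 16.2, 7.25 and 5.30 in WT microglia, on 10, 2, 5 and 10 UMIs against 9, 3 and 2. The groups did not overlap, but the 2 UMIs of KO replicate 2 came from 1 cell and the 5 of KO replicate 3 from 3 cells. The pooled ratio was 5.71 and the fitted log2 change was 2.30 ± 0.55, or 2.90 without WT replicate 1. Trp53inp1 (chr4:11156431-11174379), which encodes a nuclear stress protein that acts with p53 and in autophagy, stood at 48.2, 58.7, 27.1 and 50.0 CPM against 25.3, 7.25 and 10.6. These groups did not overlap either, although KO replicate 3, with 1 UMI, lay close to WT replicate 1. The fitted change of Trp53inp1 was 1.69 ± 0.52.

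Sesn1 (chr10:41809935-41908424) encodes a sestrin, a stress-induced brake on growth signalling through mTORC1. It stood at 69.7, 78.3, 135 and 77.8 CPM in KO and at 74.0, 41.1 and 37.1 in WT microglia. WT replicate 1 lay within the KO range, and the fitted change was 0.50 ± 0.37. It was 0.87 without WT replicate 1 and 0.33 without WT replicate 3. Phlda3 (chr1:135766119-135769136), an inhibitor of the kinase Akt, had 8, 1, 1 and 1 UMIs in the KO and 2, 1 and 6 in the WT mice and was too sparse to fit. Of its 11 UMIs in KO microglia, 8 came from replicate 1, and the levels of the mice overlapped.

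Of the apoptosis genes, Bax (chr7:45461697-45466898) encodes a protein that opens the outer mitochondrial membrane. It stood at 198, 166, 27.1 and 114 CPM in KO and at 138, 116 and 147 in WT microglia. The groups overlapped, and the fitted change of 0.21 ± 0.27 turned to -0.13 without KO replicate 1. Bbc3 (chr7:16308393-16318205), which encodes the BH3-only protein Puma, had 12, 0, 1 and 11 UMIs in KO against 10, 3 and 9 in WT mice. Aen (chr7:78895854-78911209), which encodes an apoptosis-enhancing nuclease, had 5, 0, 1 and 2 against 7, 7 and 5. Both were below the filter on low counts, and their levels overlapped between the groups. Bax overlaps Gm45808 and Sesn1 overlaps 9930024M15Rik on the same strand. Over all cells, values that were not whole held 2.29% of the UMIs of Bax and 0% of those of Sesn1. Whether reads were divided between overlapping genes was not tested.

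In all, 7 of the 10 genes could be fitted in microglia, and each had a fitted change above 0, as had 49.9% of the 4820 genes fitted. Zmat3, Trp53inp1 and Cdkn1a had changes above 1, as had 2.07% of all genes, and held places 3, 10 and 13 in the order of fitted changes. The same 3 had levels that did not overlap and were higher in KO mice, against 8.84% of all genes; none of the 7 was lower without overlap, against 9.94%. The filter on low counts used the same mice, so it is not independent of the contrast. The genes below it had KO and WT means of 22.7 and 7.31 CPM (Phlda3), 41.8 and 16.4 (Bbc3) and 12.6 and 14.3 (Aen). Because this contrast chose the list and the filter depends on it, nothing is read from these counts.

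**Figure D1:**
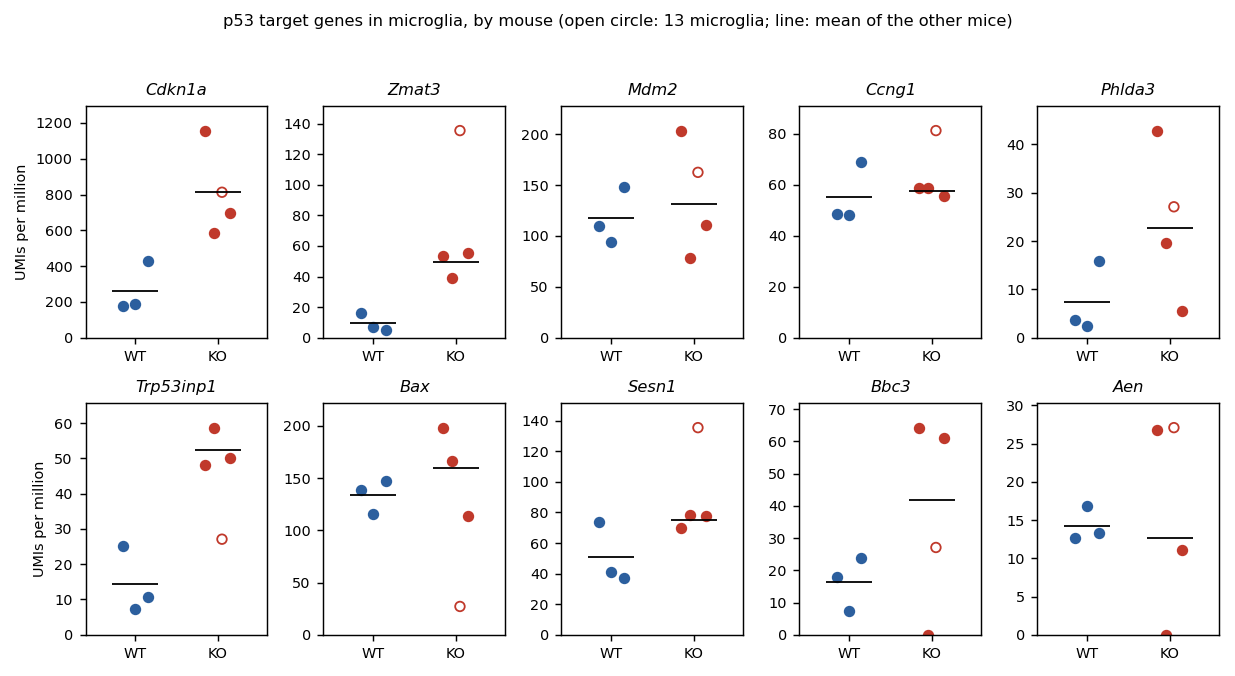
Levels of the 10 genes in microglia in CPM, on linear axes from 0, with 1 point per mouse (blue WT, red KO). The open circle is KO replicate 3 with 13 microglia, and the line is the mean of the other mice of the group. The KO points of Cdkn1a, Zmat3 and Trp53inp1 lie above all WT points, and those of Mdm2, Bax, Bbc3 and Aen lie on both sides of them.

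The authors split microglia into "Microglia" and "Microglia (Low-quality/activated)". Cdkn1a was higher in KO mice in both. Among the cells annotated as microglia without a qualifier it stood at 1248, 483 and 629 CPM in KO replicates 1, 2 and 4 and at 182, 190 and 452 in WT mice, and KO replicate 3 had no such cell. These sums hold 10, 7 and 15 cells in KO, under the minimum of 20 used elsewhere, and 44, 48 and 39 in WT mice. Among the low-quality or activated cells it stood at 1014, 703, 813 and 773 in KO and at 172, 175 and 360.5 in WT mice, from 20, 14, 13 and 34 cells against 69, 44 and 57. On these few cells neither pair of groups overlapped, and in the first the lowest KO value was close to the highest WT value.

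Zmat3 separated the groups in the low-quality or activated cells and overlapped in the others, and Trp53inp1 overlapped in both. In the low-quality or activated cells Zmat3 had 7, 2, 5 and 9 UMIs in KO against 2, 0 and 1 in WT mice, and in the others 3, 0 and 1 against 7, 3 and 1. Trp53inp1 stood at 111, 82.7, 27.1 and 98.2 CPM in the low-quality or activated cells of KO mice and at 37.7, 19.5 and 19.5 in those of WT mice, with KO replicate 3 below WT replicate 1. In the other cells it stood at 8.73, 37.2 and 10.1 against 19.0, 3.21 and 7.28. Whether the change differed between the annotations was not tested. The share of all genes without overlap in either annotation is not given, so nothing is read from the separation of Cdkn1a or Zmat3 there.

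The low-quality or activated cells made up 66.7%, 66.7%, 100% and 69.4% of microglia in the KO mice and 61.1%, 47.8% and 59.4% in the WT mice, with no overlap. Their median depth was 1612 to 3601 UMIs per mouse, against 3389 to 10554 in the other microglia. Their median mitochondrial share was 3.74% to 5.62% of UMIs against 1.78% to 2.61%, and their median ribosomal share 1.73% to 3.77% against 8.35% to 11.8%. Within them alone, in the 5 mice with at least 20 such cells, the fitted change of Cdkn1a was 1.92 ± 0.33 and that of Trp53inp1 1.87 ± 0.92. The part of the annotation in the changes of the other genes was not tested.

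The summed level of 8 T cell markers in microglia was 53.6 to 196 CPM in KO and 10.8 to 48.3 in WT mice, with all 8 detected. Cdkn1a in T cells themselves, at 56.7 to 171 CPM, was below its level in the microglia of every mouse. Zmat3 in T cells, at 10.5 to 14.8 CPM, was within the range of WT and below that of KO microglia. Trp53inp1 in T cells, at 25.2 to 49.0 CPM, was above its level in the microglia of WT replicates 2 and 3 and overlapped its range in KO microglia. The summed level of 8 NK cell markers in microglia was 80.4, 78.3, 54.2 and 16.7 CPM in KO and 3.61, 12.1 and 23.9 in WT mice, with Klrb1c and Klra8 at 0, so that 3 of the 4 KO mice lay above every WT mouse. That of 10 markers of mo-DCs and cDCs was 198, 391, 217 and 144 CPM in KO and 159, 171 and 151 in WT mice, with all 10 detected. Here too KO replicates 1 to 3 lay above every WT mouse, while KO replicate 4 lay below them. Cdkn1a in mo-DCs, at 423 to 599 CPM in KO and 595 to 788 in WT mice, was below the microglia of the same mouse in all 4 KO mice and above them in all 3 WT mice. In cDCs it stood at 120 to 257 CPM. Zmat3 in mo-DCs and cDCs was 4.10 to 8.82 CPM and Trp53inp1 4.10 to 13.9, both below every KO microglia value. The summed level of 8 microglia markers was 4959 to 7693 in KO and 7398 to 9995 in WT mice, with all 8 detected. That of 10 monocyte-derived markers was 271 to 1425 against 796 to 1352, with all 10 detected and the groups overlapping. The summed level of 8 tumour or stromal markers was lower in KO, at 1138 to 1861 against 1978 to 2872, with Col1a1, Col1a2, Ptn and Cldn5 at 0. The lists of border-associated macrophages (39.1 to 241 CPM in KO against 76.9 to 189), pDCs (920.0 to 1669 against 1116 to 1421), B cells (0 to 39.1 against 16.2 to 31.8) and neutrophils (27.1 to 161 against 91.8 to 169.7) overlapped. The part of these cell types in the levels of the 10 genes was not tested.

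Of 39 other p53 targets, 14 passed the filter in microglia, and 12 of them had a fitted change above 0, with a median of 0.49 beside -0.00064 over all genes fitted. Of all genes fitted, 49.9% had a change above 0. The lists were read in the contrast that chose the 10 genes, and the filter depends on that contrast. No test is given, and nothing is read from the counts and medians of this paragraph. Examples, chosen for naming after their values were seen, were Sesn2, a second sestrin, at 1.02 ± 0.39 and Ddit4, another brake on mTORC1, at 0.96 ± 0.38. The 2 below 0 were Ei24 at -0.05 ± 0.45 and Rps27l at -0.02 ± 0.30. Among 8 of 17 p53 regulators the median was 0.02. Trp53, which encodes p53, had a fitted change of 0.02 ± 0.38, Mdm4, the partner of Mdm2 in restraining p53, had 0.65 ± 0.25, and Atm, a kinase that signals DNA breaks to p53, was below the filter. The medians were 0.23 over 7 CDK inhibitors, G1 cyclins and kinases (6 above 0) and 0.53 over 3 proliferation genes (3 above 0). They were 0.11 over 6 genes of the BCL2 family and apoptosome (3 above 0) and 0.25 over 16 dissociation stress genes (13 above 0). Over 4 genes of the integrated stress response the median was -0.11 (1 above 0).

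Outside microglia, no gene of the list passed the test between KO and WT mice. Over 8 classes, 69 tests of the 10 genes gave 0 calls at an adjusted p under 0.05 in edgeR's quasi-likelihood test and 0 in DESeq2. Of all gene by class tests 0.0092% were called in edgeR, and the share in DESeq2 is not given. At an unadjusted p under 0.05 there were 4 of the 69, against 6.32% of all tests. A further 11 pairs of gene and class were below the filter. The p-values measure the spread between mice.

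The classes share their mice, so the signs of a gene over classes are not independent. Cdkn1a had a fitted change below 0 in each of the 7 classes in which it was tested, from -0.66 to -0.07, where microglia had 1.65. In T cells it stood at 93.4, 66.9, 56.7 and 68.2 CPM in KO and at 171, 94.9 and 87.1 in WT mice, with KO replicate 1 inside the WT range. The log2 change was -0.66 ± 0.25 (edgeR adjusted p = 0.723), and -0.34 without WT replicate 1. Within T cells the group means of single annotations went both ways. KO and WT means were 161 and 124 CPM in Tregs and 40.8 and 61.8 in CD8+ T cells (Precursor-Exhausted). The part of the mix of annotations in the class value was not tested. In mo-DCs Cdkn1a stood at 470, 423, 599 and 540 against 788, 595 and 750, with KO replicate 3 just above WT replicate 2. The change there was -0.53 ± 0.14 (edgeR adjusted p = 0.543). In cDCs the change was -0.42, and -0.25 without KO replicate 2. In 4 classes the sign turned when a single mouse was left out. The change became 0.071 in monocyte-derived cells and 0.12 in pDCs without KO replicate 1, and 0.045 in NK cells and 0.11 in tumour or stromal cells without WT replicate 1. It was also above 0 in monocyte-derived cells without WT replicate 3, in pDCs without WT replicate 1, and in tumour or stromal cells without KO replicate 2.

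The other values past the unadjusted threshold were increases. Trp53inp1 in monocyte-derived cells stood at 7.91, 13.8, 13.8 and 9.59 CPM in KO and at 8.20, 7.56 and 6.38 in WT mice, a log2 change of 0.61 ± 0.22 (edgeR adjusted p = 0.828). Sesn1 in mo-DCs stood at 7.03, 15.8, 14.5 and 16.9 against 8.19, 7.76 and 4.37, a change of 0.92 ± 0.33 (edgeR adjusted p = 0.573). In both, KO replicate 1 lay inside the WT range. Mdm2 in pDCs did not overlap, at 71.1, 76.6, 69.1 and 79.7 against 51.4, 62.8 and 52.5. Its change of 0.40 ± 0.22 did not pass the test (edgeR adjusted p = 0.829). In tumour or stromal cells Zmat3, lower in KO, and Phlda3, higher in KO, did not overlap either. The share of all genes without overlap in these classes is not given, so nothing is read from these cases.

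By single annotation, 20 of the 21 outside microglia could be fitted, and 164 tests of the 10 genes gave 0 calls in edgeR, where 0.0138% of all tests were called, and 1 in DESeq2. At an unadjusted p under 0.05 there were 9, against 5.42% of all tests, 5 of them higher and 4 lower in KO. Cdkn1a was below 0 in 14 of 19 annotations, Zmat3 in 9 of 11 and Bax in 14 of 20, and Trp53inp1 was above 0 in 14 of 19. The annotations share their mice and the share over all genes is not given, so nothing is read from these signs. The DESeq2 call was Cdkn1a in cDC2, the conventional dendritic cells annotated by that name. It stood at 439, 269, 356 and 348 CPM in KO and at 624, 505 and 613 in WT mice there, with every KO value below every WT value. The log2 change was -0.82 ± 0.18 in edgeR (adjusted p = 0.318) and -0.83 ± 0.20 in DESeq2 (adjusted p = 0.0102). Without the filter on low counts edgeR called it too (-0.85 ± 0.18, adjusted p = 0.00192). The share of all tests called in DESeq2 or without the filter is not given, so nothing is read from these calls. In cDC1 the change was -0.25 ± 0.19 (edgeR adjusted p = 0.883), and the difference between these annotations was not tested. Of 748 tests of the other lists outside microglia, 1 passed: Chac1, a stress-response enzyme that degrades glutathione, was lower in KO tumour or stromal cells (-2.22 ± 0.32, edgeR adjusted p = 0.0353). The 191 tests of other p53 targets and the 102 of p53 regulators gave no call.

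**Figure D2:**
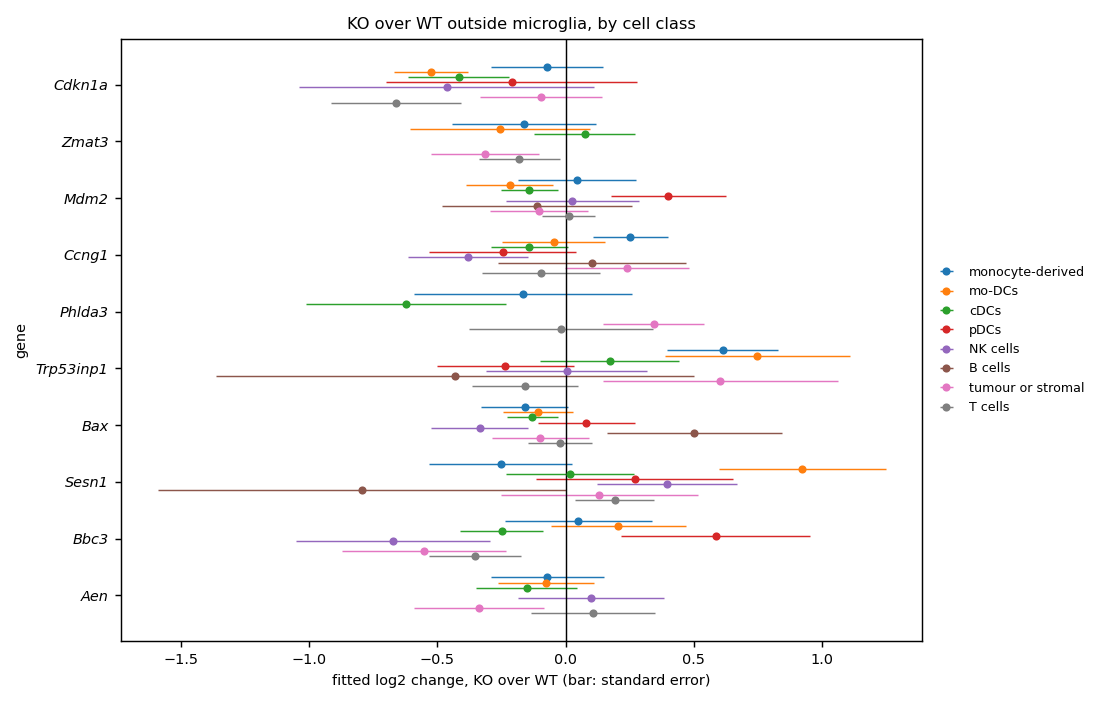
Fitted log2 change, KO over WT, of each gene in the 8 classes outside microglia, with bars for 1 standard error. Cdkn1a lies below 0 in all 7 classes shown for it, and none of the 69 values passed the test.

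Levels also differed between classes within mice, a comparison that did not use the contrast that chose the genes. Each class was tested against the mean of the 7 others outside microglia over 13506 genes. The authors named the classes from the same transcripts, so these tests describe annotated groups of cells.

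Cdkn1a was higher in monocyte-derived cells and in mo-DCs and cDCs than in the mean of the other classes. Its level averaged 725 ± 143 CPM (SD, n = 7) in monocyte-derived cells, 595 ± 135 (n = 7) in mo-DCs, 538 ± 368 (n = 6) in microglia and 203 ± 45.7 (n = 7) in cDCs. It averaged 91.2 ± 38.2 (n = 7) in T cells, 71.0 ± 33.1 in pDCs, 63.0 ± 14.7 (n = 5) in tumour or stromal cells, 58.5 ± 36.5 in NK cells and 21.4 ± 10.6 (n = 6) in B cells. Neighbours in this order overlapped in range throughout. The microglia mean joins KO mice at 813 CPM and WT mice at 264 (n = 3 each), so the place of microglia depends on the group. Against the mean of the other classes the log2 difference was 3.24 ± 0.11 in monocyte-derived cells, 2.78 ± 0.12 in mo-DCs and 1.00 ± 0.13 in cDCs, and -2.61 ± 0.24 in B cells (edgeR adjusted p at most 5.1e-09 in these 4). Of 16 dissociation stress genes 10 were higher in monocyte-derived cells (median 0.98 beside 0.01 over all genes tested) and 11 in mo-DCs (0.87 beside -0.02), and in cDCs 4 were higher and 4 lower. In NK cells 11 were higher and 2 lower (median 0.40 beside 0.03), and in T cells 10 and 2 (0.45 beside 0.05). The counts were 6 and 4 in B cells (0.02 beside -0.01), 3 and 6 in pDCs (-0.22 beside -0.09), and 2 and 14 in tumour or stromal cells (-2.30 beside -0.13). The share of all genes called in each class is given below with the counts of the 10 genes. The part of the dissociation stress genes in the differences of Cdkn1a was not tested. The levels of WT microglia took part in choosing the list, so their difference from WT monocyte-derived cells is a description: it was -2.01 ± 0.16 for Cdkn1a and -0.99 ± 0.15 for Bax. Of all genes 19.9% were lower and 13.9% higher in this contrast, and nothing is read from it.

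**Figure D3:**
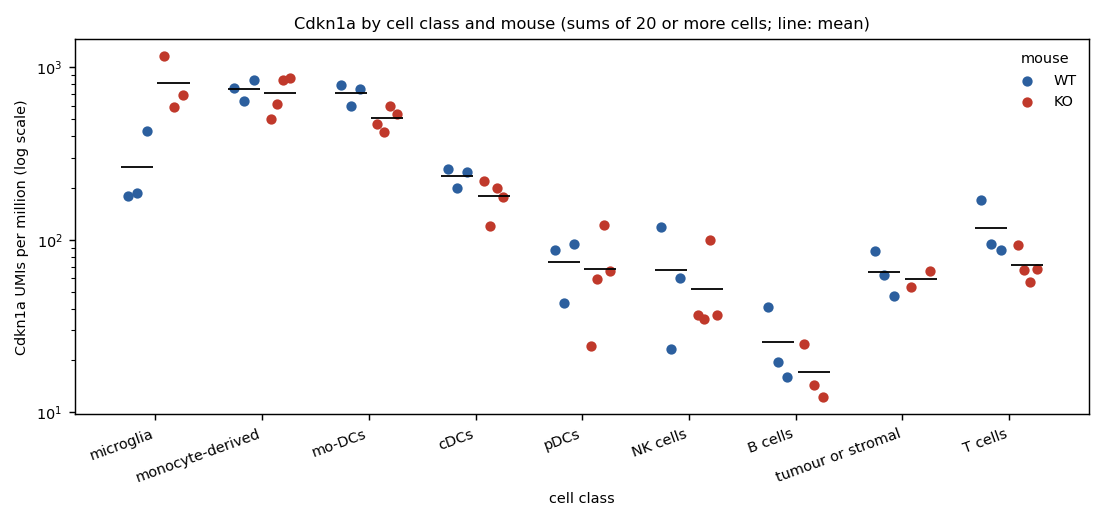
Cdkn1a in CPM on a log axis, with 1 point per mouse (blue WT, red KO) and class for sums of at least 20 cells and a line at the group mean. Microglia are the class in which all KO points lie above all WT points, the contrast that chose the list. Their KO mean was 813 CPM (n = 3), beside KO and WT means of 707 and 747 in monocyte-derived cells. The KO medians had the other order, 694 in microglia and 732 in monocyte-derived cells, and the difference was not tested.

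Mdm2 ranged from 46.4 ± 7.44 CPM in mo-DCs to 124 ± 45.3 (n = 6) in microglia. It was higher in B cells (0.76 ± 0.12) and monocyte-derived cells (0.63 ± 0.09) and lower in mo-DCs and cDCs. Ccng1 was higher in B cells (0.86 ± 0.13) and T cells (0.74 ± 0.10) and lower in tumour or stromal cells (-1.62 ± 0.16).

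Phlda3 and Zmat3 were highest in tumour or stromal cells outside microglia. Phlda3 stood at 94.9 and 111 CPM in KO replicates 2 and 4 and at 89.8, 64.5 and 89.9 in WT mice in this class, and averaged at most 2.92 in the other classes outside microglia. The difference was 4.78 ± 0.18 (edgeR adjusted p = 6.4e-30). Zmat3 stood at 36.4 and 38.7 against 51.6, 47.7 and 42.4, with a difference of 1.61 ± 0.12, and was lower in mo-DCs (-1.03 ± 0.15) and cDCs (-0.66 ± 0.12).

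By mean level over mice, Trp53inp1 and Sesn1 were highest in B cells outside microglia. Trp53inp1 ranged from 44.1 to 468 CPM over 6 mice in B cells, with a difference of 3.98 ± 0.21. It was also higher in pDCs (1.25 ± 0.30) and T cells (0.82 ± 0.19), and lower in monocyte-derived cells, mo-DCs, cDCs and tumour or stromal cells (-1.77 to -1.22). Sesn1 ranged from 13.4 to 164 in B cells, with a difference of 1.62 ± 0.24, and was higher in NK cells (1.52 ± 0.21) and lower in cDCs (-1.91 ± 0.21). The B cell sums with the most cells had low Sesn1, 13.4 in WT replicate 2 (357 cells) and 25.8 in KO replicate 4 (273 cells). Both lay below every NK cell value (33.2 to 68.7), so the order of B and NK cells for Sesn1 differed between mice.

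Among the apoptosis genes, Bax had called differences from -0.54 ± 0.09 in pDCs to 0.55 ± 0.07 in monocyte-derived cells, of which that in tumour or stromal cells did not hold in DESeq2. Bbc3 was higher in pDCs, at 40.4 ± 19.8 CPM (n = 7) and a difference of 1.28 ± 0.21, and lower in mo-DCs and T cells. Aen was higher in NK cells (0.96 ± 0.13) and T cells (0.50 ± 0.10), and lower in pDCs (-1.07 ± 0.21), monocyte-derived cells (-0.70 ± 0.11) and cDCs (-0.42 ± 0.11).

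Counted over the 10 genes, 4 were higher and 3 lower in monocyte-derived cells, against 34.6% and 27.1% of all genes. The counts were 1 and 7 in mo-DCs (27.5% and 18.8%), 2 and 5 in cDCs (29.7% and 26%), and 2 and 3 in pDCs (24.8% and 24.2%). They were 4 and 2 in NK cells (26.4% and 18.3%), 5 and 2 in B cells (26.9% and 22.9%), 3 and 5 in tumour or stromal cells (36.1% and 40.4%), and 3 and 2 in T cells (35.4% and 23.7%). Of these calls 8 were lost when single mice were left out, with these edgeR adjusted p. Ccng1 was lost in monocyte-derived cells without KO replicate 3 (0.0702) or 4 (0.194) or WT replicate 1 (0.154), 2 (0.242) or 3 (0.0831). It was lost in mo-DCs without KO replicate 1 (0.105) or 3 (0.0505) or WT replicate 1 (0.0665), and in NK cells without KO replicate 3 (0.0511) or WT replicate 1 (0.0702), 2 (0.0547) or 3 (0.148). The Bbc3 call in NK cells did not survive leaving out KO replicate 3 (0.15) or WT replicate 1 (0.261), 2 (0.0891) or 3 (0.133), and there Phlda3 was lost without KO replicate 2 (0.132) or 4 (0.0925). Aen was lost in B cells without KO replicate 3 (0.0766) or 4 (0.194) or WT replicate 1 (0.0643), and in tumour or stromal cells without WT replicate 3 (0.205). Bax was lost in tumour or stromal cells without KO replicate 4 (0.254) or WT replicate 1 (0.133) or 2 (0.51).

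Of these 8 calls, 5 were also lost under other processing. The lower call of Bax in tumour or stromal cells is the least secure: its difference of -0.25 ± 0.09 became -0.0012 in DESeq2 (adjusted p = 0.988), and the call was lost without the filter (edgeR adjusted p = 0.179) and with values deposited as whole numbers alone (0.0548). The mean level of Bax in this class, 186 ± 29.1 CPM (n = 5), was the second of the 9 classes. Ccng1 in monocyte-derived cells was lost in DESeq2 (adjusted p = 0.0578), without the filter (0.0938), with whole values alone (0.0942) and with 10 cells per library (0.0807). Ccng1 in NK cells was lost without the filter (0.137) and with 10 cells per library (0.053). Bbc3 in NK cells was lost without the filter (0.0837), with whole values alone (0.0594) and with 10 cells per library (0.0799). Aen in B cells was lost in DESeq2 (0.0562) and without the filter (0.0643).

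Of the regulators, Trp53 was higher in tumour or stromal cells (1.20 ± 0.09) and NK cells (0.49 ± 0.10) and lower in pDCs (-0.82 ± 0.12) and monocyte-derived cells (-0.60 ± 0.09). Mdm4 was lower in tumour or stromal cells (-1.11 ± 0.12) and higher in B cells (0.74 ± 0.11). The share of all genes called in each class is given above with the counts of the 10 genes. Of 37 other p53 targets tested, 16 were higher and 6 lower in monocyte-derived cells (median difference 0.20 beside 0.01 over all genes), 14 and 4 in mo-DCs (0.17 beside -0.02), and 13 and 6 in cDCs (-0.02 beside -0.05). The counts were 9 and 13 in pDCs (-0.86 beside -0.09), 9 and 9 in NK cells (-0.20 beside 0.03), and 8 and 10 in B cells (-0.37 beside -0.01). They were 12 and 18 in tumour or stromal cells (-0.35 beside -0.13) and 20 and 6 in T cells (0.37 beside 0.05).

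The authors' finer annotations resolve these levels further. Cdkn1a averaged 1393 ± 208 CPM (n = 7) in Monocytes (P1-P2), 942 ± 101 in Macrophages (P3) and 413 ± 79.9 in Macrophages (P5), and the lowest value was that of B cells. Trp53inp1 stood at 113 ± 13.1 (n = 6) in Tregs, next after B cells. Bbc3 was highest in CD4+ T cells (Naive/Early activation), at 49.5 ± 13.4 (n = 7), and lowest in CD4+ T cells/Tregs (Proliferating), at 5.21 ± 3.20 (n = 6). Ccng1 was highest in CD4+ T cells (Th1), at 139 ± 39.4 (n = 6), and Aen in CD8+ T cells (Precursor-Exhausted), at 40.7 ± 13.5 (n = 7). Levels in annotations are a description, with no test.

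**Figure D4:**
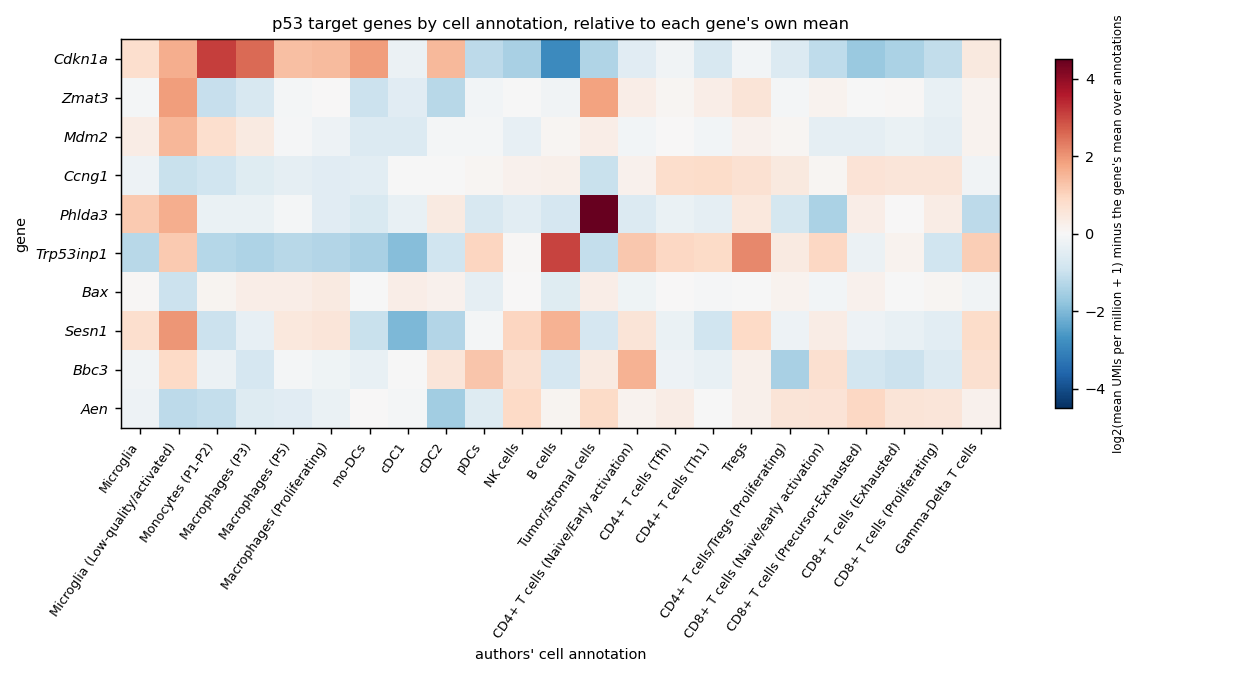
Level of each gene in the 23 annotations, as log2(mean CPM + 1) minus the mean of that gene over annotations, so that colours compare annotations within a gene. Cdkn1a is high in Monocytes (P1-P2) and Macrophages (P3), Phlda3 in tumour or stromal cells and Trp53inp1 in B cells and Tregs.

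Because p21 is a brake on the cell cycle, the genes were also compared between cycling cells (the authors' S and G2M calls) and G1 cells within mice. The calls come from transcripts, and the genes behind them are not given in the sources used here. In monocyte-derived cells Cdkn1a averaged 800 ± 163 CPM (SD, n = 7) in G1 and 433 ± 84.8 in cycling cells. It was lower in cycling cells in each of the 7 mice, with a log2 difference of -0.99 ± 0.12. Of 16 dissociation stress genes 15 were lower and 0 higher in the same comparison, with a median of -0.66 beside -0.02 over all genes tested. Of 32 other p53 targets tested, 14 were lower and 8 higher (median -0.21). The part of the dissociation stress genes in the difference of Cdkn1a was not tested. Mdm2 was lower by -0.49 ± 0.10 (5 of 7 mice) and Trp53inp1 by -0.58 ± 0.20 (5 of 7 mice); these were 3 lower and 0 higher of the 10, against 20.2% and 19.7% of 11912 genes. The Trp53inp1 call was lost without KO replicate 1 (adjusted p = 0.0602) or 2 (0.0649) or WT replicate 1 (0.0567) or 3 (0.0641), and in DESeq2 (0.0569).

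In T cells the sign for Cdkn1a was opposite. It averaged 84.7 ± 32.0 CPM in G1 and 98.9 ± 45.5 in cycling T cells and was higher in cycling cells in 5 of 7 mice, by 0.23 ± 0.07 (edgeR adjusted p = 0.0116). The dissociation stress genes did not share this sign, with 13 of 16 lower and 0 higher (median -0.35 beside -0.04), and of 32 other p53 targets 8 were higher and 8 lower. This call was lost without KO replicate 3 (adjusted p = 0.0524), KO replicate 4 (0.0827) or WT replicate 3 (0.0976), and in DESeq2 (0.0621). Trp53inp1 was lower in cycling T cells in 7 of 7 mice (-0.56 ± 0.07) and so was Bbc3 (-0.46 ± 0.11), which makes 1 higher and 2 lower of the 10, against 19.2% and 16.7% of 12723 genes. The phase difference itself differed between T cells and monocyte-derived cells for Cdkn1a, by 1.33 ± 0.16 (edgeR adjusted p = 6.9e-05), and for Mdm2, by 0.64 ± 0.12 (edgeR adjusted p = 1.9e-04), against 14.8% of all genes called.

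In 2 further classes, compared after these results were seen, Cdkn1a was again lower in cycling cells. The difference was -0.54 ± 0.08 in mo-DCs and -0.75 ± 0.07 in cDCs, in 7 of 7 mice each. In cDCs Trp53inp1 (-1.37 ± 0.27) and Bbc3 (-0.63 ± 0.14) were lower as well, against 26.4% of genes lower, and Aen was higher (0.37 ± 0.14), against 24.5%. The Aen call was lost without KO replicate 2 (adjusted p = 0.16) or KO replicate 4 (0.0653), and in DESeq2 (0.0931). In mo-DCs, where 9.01% of genes were lower, Trp53inp1 (-1.21 ± 0.43) and Bbc3 (-0.78 ± 0.27) were also called lower. In mo-DCs the Trp53inp1 call was lost without any 1 of KO replicates 2 to 4 or the WT mice and the Bbc3 call without any 1 of the KO mice or WT replicate 3, with adjusted p up to 0.305 and 0.114. Both were lost in DESeq2 (adjusted p = 0.18 and 0.226), and Trp53inp1 with values deposited as whole numbers alone (0.0544). For NK cells levels alone are given: Cdkn1a averaged 48.9 CPM in G1 and 48.9 in cycling cells. It was higher in cycling NK cells in 3 and lower in 3 of 6 mice.

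A class joins annotations that can hold different shares of cycling cells, and 4 annotations, also chosen after the data had been seen, were fitted alone. Within Macrophages (P5) alone Cdkn1a remained lower in cycling cells (-0.42 ± 0.07, edgeR adjusted p = 1.6e-06; 11.4% of genes lower and 13.1% higher), while Mdm2 did not pass (-0.18 ± 0.10, adjusted p = 0.217). Within Macrophages (P3) Cdkn1a had a difference of -0.35 ± 0.17 (adjusted p = 0.394; 1.05% of genes lower and 2.73% higher). Within CD8+ T cells (Precursor-Exhausted) Cdkn1a was higher in cycling cells (0.60 ± 0.11, edgeR adjusted p = 1.2e-04; 9.56% of genes higher and 5.84% lower), and within CD4+ T cells (Tfh) it had a difference of 0.16 ± 0.14 (adjusted p = 0.746; 1.86% of genes higher and 0.367% lower). Trp53inp1 was called lower in Macrophages (P5) (-0.85 ± 0.28, edgeR adjusted p = 0.021). Its call was lost in Macrophages (P3) (-0.30, adjusted p = 0.977), in CD8+ T cells (Precursor-Exhausted) (-0.35, adjusted p = 0.0787) and in CD4+ T cells (Tfh) (-0.58, adjusted p = 0.219). That of Bbc3 was lost in CD8+ T cells (Precursor-Exhausted) (-0.16, adjusted p = 0.671), and Bbc3 was below the filter in CD4+ T cells (Tfh). That of Mdm2 was lost in Macrophages (P3) (-0.73, adjusted p = 0.316).

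**Figure D5:**
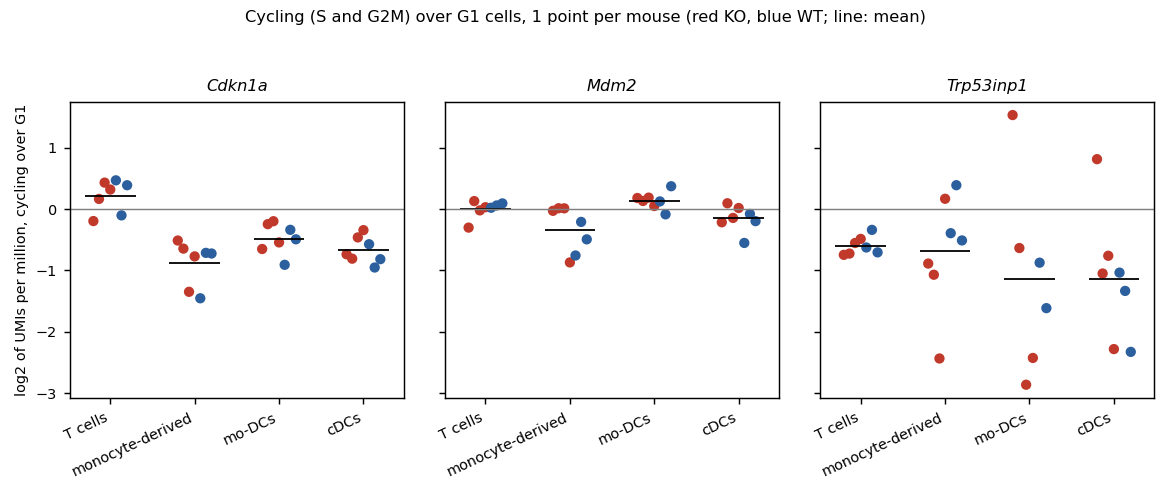
Log2 of the level in cycling over that in G1 cells, with 1 point per mouse (red KO, blue WT) and a line at the mean, for Cdkn1a, Mdm2 and Trp53inp1 in 4 classes. Cdkn1a lies below 0 in all mice of the 3 myeloid classes and above 0 in 5 of 7 mice in T cells; 1 WT mouse with no Trp53inp1 UMI in cycling mo-DCs is not drawn.

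Likeness of pattern was measured as the Pearson correlation of log2(CPM + 1) over 142 sums of 1 annotation in 1 mouse, across 8959 genes; the sums share libraries and cell classes, so no p is given. Cdkn1a was most like Ccrl2 (r = 0.87), Il1b (0.86) and Ier3 (0.82). Trp53inp1 was most like Foxo1 (0.73), Ets1 (0.71) and Itgb3 (0.71), and Ccng1 like Ctla4 (0.72), Tnfrsf18 (0.71) and Rhof (0.71). Aen was most like 1190007I07Rik (0.80), Rpl14-ps1 (0.79) and Idh3a (0.75), and Bax like Cfl1 (0.73), Ap2s1 (0.65) and Gpi1 (0.64). Sesn1 was most like Macf1 (0.64), Man1a (0.63) and AU020206 (0.58), and Phlda3, whose own mean was under 10 CPM, like Vps35 (0.60), Crtap (0.58) and Ppid (0.57). The values were lower for Mdm2 with Trp53bp2 (0.58), Abcc5 (0.57) and Camk2d (0.56), for Zmat3 with Nol8 (0.57), Cul5 (0.57) and Desi2 (0.52), and for Bbc3 with Zmym2 (0.49), Tug1 (0.48) and Acvr2a (0.47). Among the 10 genes, 27 of 45 pairs had a correlation above 0, with a median of 0.095 and a range of -0.54 to 0.46.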

How the data were processed

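Single-cell 5′ RNA libraries (10x Genomics) of sorted cells from 7 gliomas were used. The authors deposited a matrix of estimated counts of UMIs per gene and cell, made with STARsolo, STAR 2.7.10a and FastQC 0.11.5 on build mm10 per the submitters' processing notes; 7.51% of its non-zero values, with 8.71% of UMIs, were not whole. The deposited cell table gives counts of genes detected, the percent of mitochondrial and ribosomal UMIs, cell annotations and phases per cell, per the file headers. How doublets were treated is not given in the sources used here.

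UMIs were summed per mouse and class or annotation, rounded to whole numbers, and kept for sums of at least 20 cells. KO replicate 3 therefore left the microglia fit, KO replicate 1 the B cell fit, and KO replicates 1 and 3 the tumour or stromal fits. All genes of a comparison were fitted with edgeR 4.0.16 (R 4.3.3, TMM, filterByExpr, quasi-likelihood test), with p-values adjusted by Benjamini-Hochberg over all genes and called under 0.05. KO was compared with WT without further terms; classes and phases were compared with the mouse as a term. Levels are CPM, UMIs per 1000000, (Python 3.11.15, pandas 2.3.3, numpy 2.4.6, scipy 1.17.1). Pooled ratios in microglia are given without an interval, since this contrast chose the list and the UMIs of a cell or mouse are not independent. Alternatives were DESeq2 1.42.0, no filter, values deposited as whole numbers alone, 10 cells per library, G1 cells alone, sex as a term, a replicate block and each mouse left out.

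The 10 genes and all lists were chosen with earlier results of these data known. The rule for names was the 10 genes, Trp53, Mdm4 and Atm, list members that passed a test (at most 6 per list and direction) and the 3 genes most like each of the 10. Not every list member that passed between classes or phases is named, and names outside the rule are marked. Tested on simulated data, the T cell KO over WT fit of 13098 genes recovered 61% of genes changed 2-fold and 98% of those changed 4-fold. The 100 genes changed at each fold were drawn from well-counted genes, and the same spread was set for every gene. T cells are also the class with the most cells (13692). Recovery of KO over WT changes was not measured for sparse genes or for classes with few cells.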

Additional observations from a re-analysis of the deposited data

Results flagged for a closer look

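Over the 10 genes and 6 classes in which all 4 KO mice gave a value, 60 groups were examined for a mouse far from the rest of its group, and 3 were found; chance gives about 1 in 20 such groups. Cdkn1a in NK cells stood at 99.8 CPM in KO replicate 3, against 34.6 to 36.9 in the other KO mice. Phlda3 in cDCs stood at 0.601 CPM in KO replicate 1, against 2.40 to 2.72. Bax in T cells stood at 144 CPM in KO replicate 2, against 157 to 158.

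The difference between cycling and G1 cells was itself different between T cells and monocyte-derived cells for Cdkn1a, by 1.33 on the log2 scale, and for Mdm2, by 0.64. Both passed the test of the interaction of phase and class, a test chosen only after seeing the data.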

How the results depend on the processing

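KO microglia were few, 113 cells against 301 in WT, and 1 KO mouse had 13, so Phlda3, Bbc3 and Aen had no fitted change there. In microglia the fitted change of Zmat3 ranged from 2.05 to 2.90 and that of Bax from -0.13 to 0.42 when 1 mouse was left out, and Cdkn1a from 1.27 to 2.18. The changes of Mdm2, Bax and Ccng1 took both signs over the alternatives. With 4 KO and 3 WT mice, a change of the size of 2-fold was recovered less often than a 4-fold one in simulated T cells.

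Outside microglia, Cdkn1a KO over WT turned sign when single mice were left out. It ranged from -0.19 to 0.071 in monocyte-derived cells (0.071 without KO replicate 1, 0.065 without WT replicate 3) and from -0.59 to 0.12 in pDCs (0.12 without KO replicate 1, 0.03 without WT replicate 1). In NK cells the range was -0.85 to 0.045 (0.045 without WT replicate 1), and in tumour or stromal cells -0.28 to 0.11 (0.09 without KO replicate 2, 0.11 without WT replicate 1). The value of Cdkn1a KO over WT, tumour or stromal, was 5.52e-05 with sex as a term. The count of the 10 genes called by single annotation was 0, and became 1 in DESeq2 and 1 without the filter, in both Cdkn1a in cDC2. The share of all tests called in these settings is not given.

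A replicate block called 1 gene in B cells, Trp53inp1 (-2.17 ± 0.59, edgeR adjusted p = 0.0239), and 2 by single annotation, that value and Cdkn1a in cDC2 (-0.88 ± 0.18, edgeR adjusted p = 0.0216). The share of all tests called with the block is not given, so nothing is read from these calls. The numbers did not pair the mice: same-numbered deviations correlated between -0.223 and 0.136 over 4 classes, and at most 1 of 6 libraries in a class correlated best with its own number. The block and G1 cells alone could not be fitted in tumour or stromal cells.

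The count of genes called between cycling and G1 mo-DCs was 3, became 1 in DESeq2 and ranged from 1 to 2 without 1 mouse. Between cycling and G1 monocyte-derived cells it was 3 and became 0 in Macrophages (P3) alone. Between cycling and G1 T cells it was 3, and became 1 in CD8+ T cells (Precursor-Exhausted) alone and 0 in CD4+ T cells (Tfh) alone; these fits hold fewer cells and test fewer genes. The counts of genes differing between classes stayed within 1.5 times their value under each alternative run.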
